A study of Mus musculus with 4 samples.

Results

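The MAP kinase cascade kinases were taken as every non-control probe of the arrays whose gene name was MAPK, MAP2K, MAP3K or MAP4K followed by a number. This gave 61 probes for 39 genes, out of 41000 probes on the array: 12 probes for 5 MAP4K genes, 19 for 15 MAP3K genes, 11 for 7 MAP2K genes and 19 for 12 MAPK genes. The RNA came from H460, an established human lung carcinoma cell line, treated for 4 h with 250 µM farnesol (FOH), an isoprenoid alcohol, or with the vehicle DMSO alone. The organism label names the mouse, but H460 is human and so are the transcripts on the array, and the values were read as human. The study asks how farnesol-induced cell death relates to stress of the endoplasmic reticulum (ER). There were 2 duplicate experiments, called replicates 1 and 2, each with a farnesol RNA and its own vehicle RNA hybridised together on 2 arrays with the dyes exchanged. The labels do not say whether the duplicates were separate cultures, so p-values measure only the spread between these RNAs. A single line, dose and time were measured. In such bulk RNA, fewer cells that carry a transcript and less of it per cell cannot be told apart.

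A MAP kinase cascade passes a signal through successive phosphorylations, from MAP4K or other upstream proteins to a MAP3K, from there to a MAP2K, and finally to a MAP kinase. The ERK arm runs mainly through MAP2K1 and MAP2K2 and answers growth factors, whereas the p38 arm (MAP2K3 and MAP2K6) and the JNK arm (MAP2K4 and MAP2K7) answer stress and cytokines. The ERK5 arm has the single MAP2K, MAP2K5. The activity of these kinases depends largely on phosphorylation, and the arrays measure neither that nor the amount of protein. Only the amounts of their transcripts are described here.

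On the arrays, the share of all probes well above background ran from 82.4% to 92.9% per channel, and of the 61 kinase probes 52 to 59 were. No kinase probe was saturated. The carcinoma markers KRT8, KRT18, KRT19, CDH1 and TACSTD1 (EpCAM) were well above background with all 10 of their probes on 4 of 4 arrays in both conditions, and had a median log2 ratio of -0.21. The filter for testing also passed 6 of 8 leukocyte, 8 of 9 fibroblast and 7 of 7 endothelial marker probes, with medians of 0.10, 0.02 and 0.01, so it separates cell types poorly. The kinase probes' dye-swapped arrays differed by a median of 0.07 on the log2 scale, and their replicates by a median of 0.17. Across the 58 kinase probes tested, the replicates' log2 ratios correlated at r = 0.501, against 0.680 across all 37349 tested probes. These are correlations across probes of the same arrays, given as a description.

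A probe was tested where the same condition's RNA was well above background on at least 1 array of each replicate, which 58 of the 61 probes and 38 of the 39 genes met. MAP3K15 had no tested probe, and MAP2K5 and MAPK14 each had 1 probe that was left out. All log2 ratios below are farnesol over vehicle after a background correction that adds an offset of 50 intensity units, which shrinks the ratios of dim probes. The SD is that of the 2 replicates, each the mean of its 2 arrays. Normalised intensities are given per replicate, on a linear scale that includes the offset, and are compared within a probe only.

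After 4 h of farnesol most of these transcripts were close to their vehicle level, and the exceptions were few. The log2 ratio of MAP3K14, the kinase NIK, was the highest, at 1.06 ± 0.55 (SD, n = 2). MAP2K3, which activates p38, followed with 0.94 ± 0.54 and 0.59 ± 0.42 from its probes. The lowest was that of a probe of MAPK14, which is p38alpha itself, at -0.71 ± 0.29. The other tested MAPK14 probe had -0.09 ± 0.03. The 58 probes had a median of 0.02, with 0.02 in replicate 1 and 0.01 in replicate 2, and the median over all tested probes was 0.01. Of the 58 probes, 50 (86.2%) had a mean ratio within 1.2-fold of equality, against 81.4% of all tested probes.

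By limma's moderated test, with Benjamini-Hochberg adjustment over all 37349 probes, 0 of 58 kinase probes passed the threshold of 0.05, against 0.0107% of all probes. At an unadjusted p under 0.05, 2 kinase probes were higher and 4 lower, or 3.45% and 6.90%, where all probes gave 3.81% and 11.0%. By size, 0 kinase probes reached 2-fold in a shared direction in both replicates with all 4 arrays on that side, against 0.635% of all probes higher and 0.206% lower. At 1.5-fold the same rule took 1 kinase probe, that of MAP3K14, against 1.23% of all probes higher (461) and 1.35% lower (504). With each array centred on its median in place of loess, the 1.5-fold rule took 0 kinase probes, and over all probes 380 higher and 872 lower. With an offset of 0, and also with the scanner's processed signals, it took 3 kinase probes, those of MAP3K14 and MAP2K3 higher and that of MAP2K5 lower. Over all probes it then took 731 higher and 841 lower without the offset, and 750 higher and 1029 lower from the processed signals. The same sign on all 4 arrays was seen for 9 kinase probes higher and 10 lower, or 15.5% and 17.2%, against 19.9% and 22.5% of all probes. These shares lie near or below those of the whole array, with the 1.5-fold count too small to compare.

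**Figure D1:**
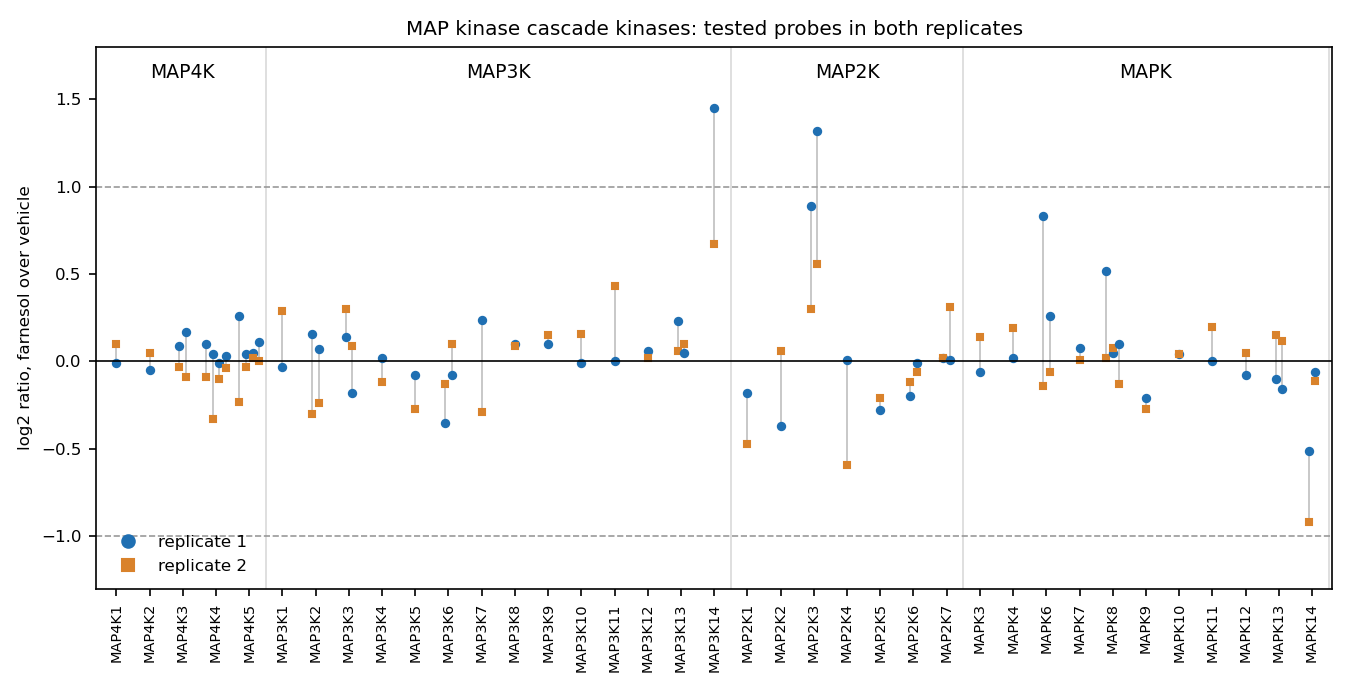
Log2 ratio of farnesol over vehicle (vertical axis) for the tested probes of the genes shown, grouped by gene and tier, with replicate 1 as circles and replicate 2 as squares joined by a line. Dashed lines mark 2-fold. Most probes sit near 0, and no probe lies beyond 2-fold in both replicates.

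The limma intervals say how large a change the replicates still allow. For 53 of the 58 probes the 95% interval of the log2 ratio lay wholly inside 2-fold in either direction. The interval excluded 0 for 6 probes, those with an unadjusted p under 0.05 above. Such intervals were not counted over all tested probes, so these counts cannot be called particular to the kinases. The 5 probes whose interval reached 2-fold were both probes of MAP2K3, the MAP3K14 probe, 1 probe of MAPK6 and 1 probe of MAPK14. These bounds hold for the ratios with the offset, so a dim transcript could have changed by more than its interval states.

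The MAP4K tier, kinases that can activate MAP3Ks, had the narrowest range. Its 12 probes lay between -0.15 and 0.06, and none had the same sign on all 4 arrays. Many of these probes were dim, so the offset shrank their ratios. With an offset of 0 the means of the tier ran from -0.16 to 0.11. Single replicates moved more, as for MAP4K3 probe A_24_P285522. It had 0.17 and -0.09 in replicates 1 and 2, but 0.42 and -0.41 with an offset of 0. The 4 probes of MAP4K4 ran from -0.15 to 0.00, and the lowest of them and of the tier was A_23_P108604. It had a normalised intensity of 312 and 235 in farnesol cells, against 305 and 296 in vehicle cells. Its log2 ratio was 0.04 in replicate 1 and -0.33 in replicate 2, so the replicates had opposite signs. The highest value was 0.06 ± 0.07 for MAP4K5 probe A_32_P203219, with 95 and 89 in farnesol cells, against 88 and 88 in vehicle cells. The 4 MAP4K5 probes ranged from 0.00 to 0.06. MAP4K1, known from blood cells, MAP4K2 and MAP4K3 had 0.04, 0.00 and 0.03 to 0.04. Of the 12 probes, 9 had opposite signs in the 2 replicates, a larger share than the 13009 of all 37349 tested probes. That difference was not tested.

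Among the 18 MAP3K probes tested, MAP3K14 stood alone. NIK, its product, is best known for activating IKKalpha in the non-canonical NF-kappaB pathway. The probe A_23_P207319 had a normalised intensity of 414 and 291 in farnesol cells, against 151 and 182 in vehicle cells. Both farnesol values were above both vehicle values, and the first replicate's difference was the larger. On the 4 arrays the log2 ratio was 1.44 and 1.46 in replicate 1 and 0.69 and 0.66 in replicate 2. The mean of 1.06 ± 0.55 is a 2.09-fold difference (limma adjusted p = 0.259, 95% interval 0.29 to 1.84). With an offset of 0 the mean was 1.37, or 2.58-fold.

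The other 17 MAP3K probes lay between -0.24 and 0.22. MAP3K5, the stress kinase ASK1, which ER stress can engage through TRAF2, had -0.17 ± 0.13 and was lower on 4 of 4 arrays. Its relative MAP3K6 (ASK2) gave the lowest value of the tier, -0.24 ± 0.15 for A_24_P145653, while its other probe gave 0.01 ± 0.12. MAP3K6 probe A_24_P145653 had an intensity of 296 and 361 in farnesol cells, against 376 and 397 in vehicle cells, and the ratio was below 0 on 4 of 4 arrays. MAP3K3 (MEKK3), which acts on MAP2K5, also had probes of both signs, with 0.22 ± 0.11 for A_23_P207131 and -0.04 ± 0.19 for A_23_P207138. The first of these had an intensity of 1359 and 1784 in farnesol cells, against 1237 and 1453 in vehicle cells, and its mean was -0.01 under median centring.

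MAP3K8, the kinase TPL2 that links NF-kappaB signalling to ERK, had 0.09 ± 0.00. Its probe was dim, with 81 and 74 in farnesol cells, against 76 and 70 in vehicle cells. The mean of MAP3K8 depended on the offset, at 0.29 with an offset of 0 and 0.46 with the scanner's processed signals. MAP3K7 (TAK1), which relays cytokine receptors to p38, JNK and NF-kappaB, had 0.24 in replicate 1 and -0.29 in replicate 2. MAP3K4, which GADD45 proteins bind, had -0.05 ± 0.10, and MAP3K1 (MEKK1) had 0.13 ± 0.22. The mixed lineage kinases MAP3K9, MAP3K10 and MAP3K11 had 0.12, 0.08 and 0.21, and the leucine zipper kinases MAP3K12 and MAP3K13 had 0.04 and 0.07 to 0.15. MAP3K2, a second MAP3K of the ERK5 arm, had -0.07 and -0.09 from its probes. Over the tier, 8 of 18 probes were higher in both replicates, 2 were lower in both and 8 had opposite signs. Over all 37349 tested probes, 12687 were higher in both, 11653 lower in both and 13009 opposite.

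The MAP2K tier had 10 tested probes for its 7 genes, from -0.33 to 0.94. MAP2K3 gave the 2 highest. Its probe A_24_P296698 had a normalised intensity of 2682 and 1773 in farnesol cells, against 1074 and 1201 in vehicle cells. Both farnesol values exceeded both vehicle values, more so in replicate 1. The log2 ratio was 1.33 and 1.31 on the arrays of replicate 1 and 0.63 and 0.49 on those of replicate 2, with a mean of 0.94 ± 0.54, or 1.92-fold (limma adjusted p = 0.281). The other probe, A_23_P118427, had 227 and 144 in farnesol cells, against 123 and 118 in vehicle cells, and a log2 ratio of 0.59 ± 0.42 (1.51-fold, adjusted p = 0.341). This second probe was thus also higher on 4 of 4 arrays, and its mean was 0.88 with an offset of 0.

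MAP2K6, the other activator of p38, had -0.16 ± 0.06 from A_23_P207445 and -0.03 ± 0.03 from A_24_P416489. The first of these had 469 and 369 in farnesol cells, against 540 and 402 in vehicle cells, and was lower on 4 of 4 arrays. The 2 p38 activators therefore had ratios of opposite sign, a difference that was not tested.

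MAP2K1 (MEK1), which activates the ERK kinases, had the lowest value of the tier. Its intensity was 439 and 282 in farnesol cells, against 497 and 392 in vehicle cells, and its log2 ratio was -0.33 ± 0.21 (limma adjusted p = 0.344), below 0 on 4 of 4 arrays. MAP2K2 (MEK2) had 383 and 409 in farnesol cells, against 497 and 391 in vehicle cells, a log2 ratio of -0.37 in replicate 1 and 0.06 in replicate 2. The intensities of MAP2K2 overlapped between the conditions.

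MAP2K4, an activator of JNK, had 476 and 297 in farnesol cells, against 473 and 447 in vehicle cells. Its log2 ratio was 0.01 in replicate 1 and -0.59 in replicate 2, so the replicates disagreed. MAP2K7, the other JNK activator, had 0.02 ± 0.00 from A_23_P78628 and 0.16 ± 0.22 from A_24_P313895. Probe A_24_P313895 had 93 and 215 in farnesol cells, against 93 and 173 in vehicle cells, which spans a wider range between replicates than between conditions. Probe A_23_P78628 had 70 and 74 in farnesol cells, against 69 and 73 in vehicle cells, close to the offset.

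MAP2K5 (MEK5), the activator of ERK5, was dim. Probe A_24_P356130 had 69 and 67 in farnesol cells, against 83 and 77 in vehicle cells, and was well above background on 2 of 4 arrays in farnesol RNA and 4 of 4 in vehicle RNA. Its log2 ratio was -0.24 ± 0.05 (limma adjusted p = 0.270), lower on 4 of 4 arrays. The value depended on the offset, at -0.79 without the offset and at -0.93 when the scanner's processed signals were used.

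**Figure D2:**
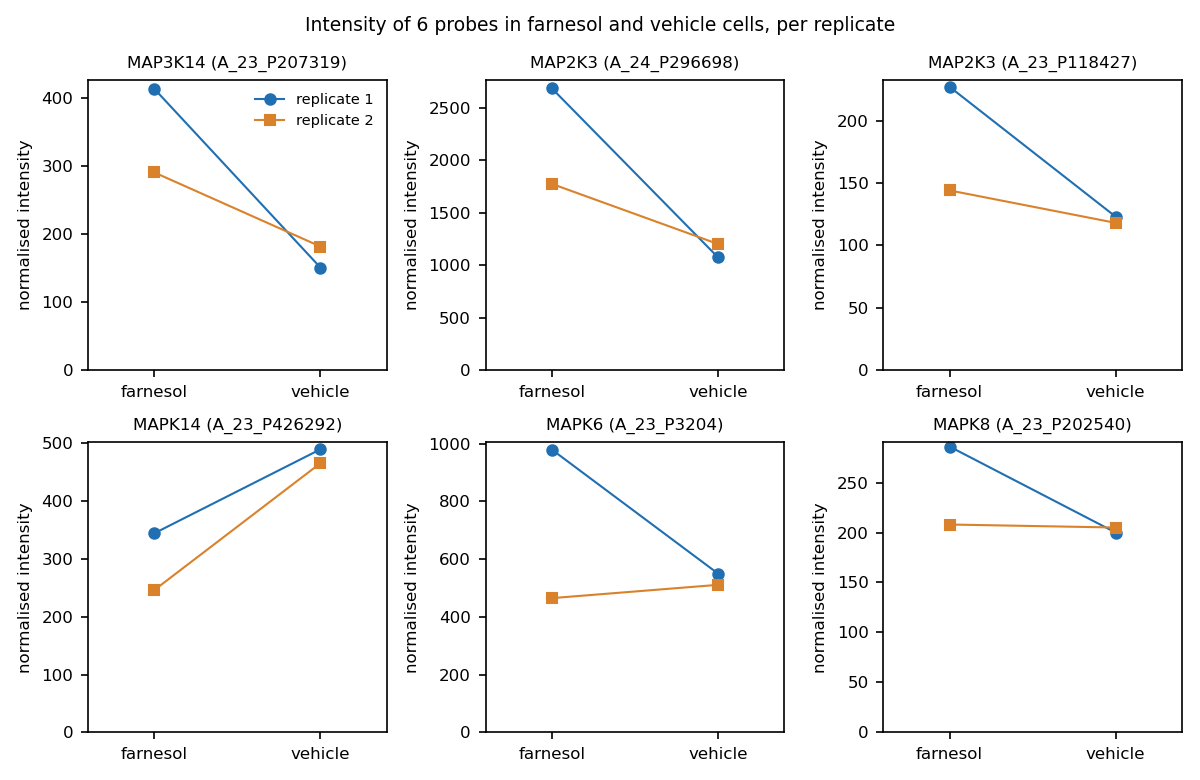
Normalised intensity (vertical axis, linear, including the offset of 50) of 6 probes in farnesol cells (left) and vehicle cells (right), one line per replicate. MAP3K14 and MAP2K3 were higher with farnesol in both replicates, MAPK14 probe A_23_P426292 was lower in both, and MAPK6 and MAPK8 were clearly higher in replicate 1 alone, with log2 ratios of -0.14 and 0.02 in replicate 2.

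Among the MAP kinases, 18 of 19 probes were tested and lay between -0.71 and 0.35. MAPK14 encodes p38alpha, the most widely expressed p38. Its probe A_23_P426292, designed on NM_001315 (transcript variant 1), had a normalised intensity of 344 and 246 in farnesol cells, against 489 and 465 in vehicle cells. Both farnesol values were below both vehicle values, and here replicate 2 had the larger difference. The log2 ratio was -0.49 and -0.53 on the arrays of replicate 1 and -0.86 and -0.98 on those of replicate 2. The mean of -0.71 ± 0.29 is a 1.64-fold lower level (limma adjusted p = 0.226, 95% interval -1.15 to -0.28).

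The other tested MAPK14 probe, A_24_P283288, is designed on NM_139013 (transcript variant 3). It had 120 and 112 in farnesol cells, against 125 and 121 in vehicle cells, and a log2 ratio of -0.09 ± 0.03. The 2 probes differed in size by 0.62 on the log2 scale, the widest spread within any of the 15 kinase genes with several tested probes, where the median spread was 0.14. With an offset of 0 the means were -0.80 for A_23_P426292 and -0.15 for A_24_P283288. Whether low signal or different transcripts account for the difference between these 2 probes was not tested. The MAPK14 probe left out of testing, A_24_P397566, is also designed on NM_139013 and was dim, with -0.02 ± 0.04. The remaining p38 genes had MAPK11 at 0.10 ± 0.14, MAPK12 at -0.02 ± 0.09 and MAPK13 at 0.02 ± 0.18 and -0.02 ± 0.20.

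MAPK11 (p38beta) had an intensity of 279 and 322 in farnesol cells, against 279 and 280 in vehicle cells. MAPK12 (p38gamma) had 137 and 172 in farnesol cells, against 145 and 166 in vehicle cells. MAPK13 (p38delta) probe A_24_P406132 had 163 and 161 in farnesol cells, against 181 and 148 in vehicle cells, and probe A_23_P145376 had 103 and 117, against 111 and 105. For MAPK12 and MAPK13 the conditions overlapped, with a lower ratio in replicate 1 and a higher one in replicate 2.

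MAPK3 (ERK1), a final kinase of the growth factor arm, had 164 and 213 in farnesol cells, against 171 and 194 in vehicle cells, and a log2 ratio of 0.04 ± 0.14 with opposite signs in the replicates.

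The probes of the JNK genes had mean log2 ratios from -0.24 to 0.27. MAPK9 (JNK2) had 132 and 97 in farnesol cells, against 152 and 117 in vehicle cells. Its log2 ratio was -0.24 ± 0.04 (limma adjusted p = 0.271), lower on 4 of 4 arrays, and -0.43 with an offset of 0. The intensity ranges of MAPK9 overlapped between the conditions, although within each replicate farnesol was lower.

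MAPK8 (JNK1) had 3 probes of both signs. A_23_P202540 had 286 and 208 in farnesol cells, against 200 and 205 in vehicle cells, with a log2 ratio of 0.52 in replicate 1 and 0.02 in replicate 2. A_23_P356152 had 185 and 215 in farnesol cells, against 178 and 203 in vehicle cells, with 0.07 ± 0.02. A_24_P286898 had 80 and 63 in farnesol cells, against 75 and 69 in vehicle cells, with -0.01 ± 0.16. The higher value of MAPK8 thus came from 1 probe in 1 replicate. MAPK10 (JNK3), known mainly from neurons, had 96 and 102 in farnesol cells, against 93 and 100 in vehicle cells, with 0.04 ± 0.00.

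MAPK6, the atypical kinase ERK3, had the highest mean of the MAP kinases and the widest SD of the 58 probes. Its probe A_23_P3204 had 979 and 465 in farnesol cells, against 550 and 511 in vehicle cells. The log2 ratio was 0.92 and 0.75 on the arrays of replicate 1 and -0.06 and -0.21 on those of replicate 2, giving 0.35 ± 0.69 (limma adjusted p = 0.661, 95% interval -0.61 to 1.30). The second MAPK6 probe, A_24_P333663, had the same signs, at 0.26 in replicate 1 and -0.06 in replicate 2. It was dim, well above background on 2 of 4 arrays in farnesol RNA and 3 of 4 in vehicle RNA. With median centring this second probe had 0.29 and 0.12, where the first had 0.74 and -0.37. MAPK4 (ERK4), the closest relative of MAPK6, had 0.10 ± 0.12, and MAPK7, which is ERK5, had 0.05 ± 0.05.

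**Figure D3:**
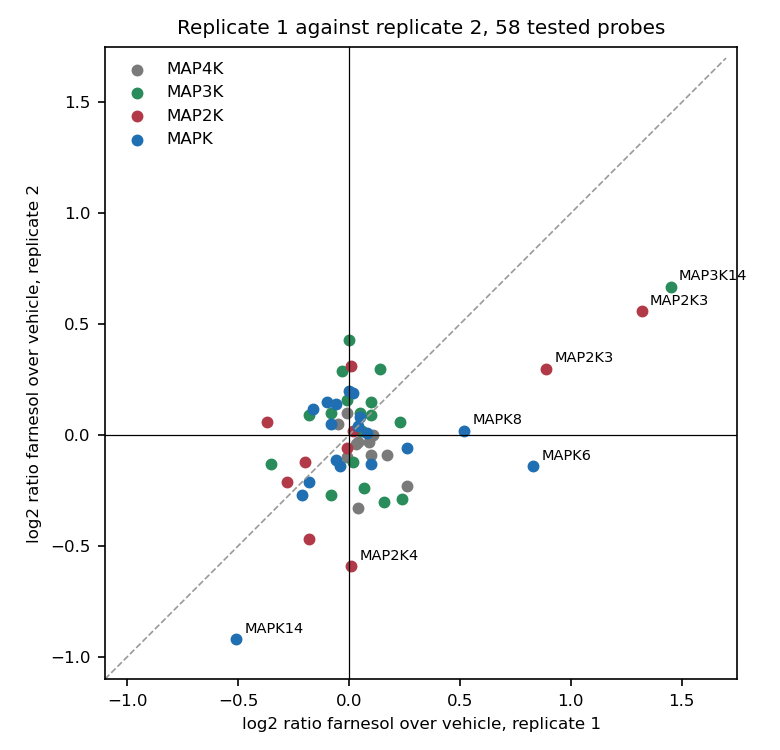
Log2 ratio of farnesol over vehicle in replicate 1 (horizontal axis) against replicate 2 (vertical axis) for the 58 tested probes, coloured by tier, with the line of equality dashed. MAP3K14 and both MAP2K3 probes lie in the upper right below the line, MAPK14 in the lower left, and MAPK6, MAPK8 and MAP2K4 are far from 0 in only 1 replicate.

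By arm of the cascade, the 10 probes of the p38 arm had a median of -0.02 and the widest range, from -0.71 for MAPK14 to 0.94 for MAP2K3. The 8 probes of the JNK arm had a median of 0.03, from -0.29 to 0.27, and the 2 tested probes of the ERK5 arm had -0.24 and 0.05. The arms were grouped by known function, and no test between them was made. The p38 arm held both the highest MAP2K probe and the lowest MAPK probe, but it also had the most probes. Its other tested MAPK14 probe had -0.09.

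The replicates differed in which was stronger. MAP3K14, MAP2K3, MAPK6 and MAPK8 had the larger ratio in replicate 1, whereas MAPK14, MAP2K1 and MAP2K4 had it in replicate 2. Taken alone, replicate 1 had 2 kinase probes at least 2-fold higher, those of MAP3K14 and MAP2K3 (A_24_P296698), and replicate 2 had 0. Over all 37349 tested probes, 746 were at least 2-fold different in replicate 1 alone and 724 in replicate 2 alone. The kinase counts are too small to compare with these.

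The authors' deposited table, a list of probes with a ratio and a p-value no larger than 0.001, holds 7018 probes, or 17.1% of the array, and 14 of the 61 kinase probes (23%). Its ratios followed the scanner software's log ratios of replicate 1 (r = 0.9999 across probes), so it is not a second measurement. The authors' deposited table gives 7 kinase probes higher and 7 lower, against 2963 higher and 4055 lower among all its probes. In the authors' deposited table MAP3K14 had a ratio of 3.55, MAP2K3 2.64 and 2.37, MAPK6 1.88 and MAPK8 1.57, while MAPK14 had 0.675 and MAP2K5 0.522. Of the 14 kinase probes in the authors' deposited table, the 5 of MAPK6, MAP4K3, MAP4K5, MAP3K3 and MAP2K2 had opposite signs in replicates 1 and 2. A similar share, 13009 of 37349, had opposite signs among all tested probes.

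Other genes of the pathway, from lists of known function chosen with earlier results of these data known, set the kinases in context. Of the 19 tested probes for RAS and RAF proteins with their adaptors, 0 were 1.5-fold different in both replicates, and the median log2 ratio was -0.07. The same count was 0 of 19 for small GTPases and PAK kinases (median -0.18), 0 of 26 for cascade kinases under other symbols such as TAOK1, ZAK and NLK (0.01), and 0 of 16 for kinases that MAP kinases phosphorylate, such as MAPKAPK2 and RPS6KA1 (0.01).

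Genes past the 1.5-fold rule were found among scaffolds, transcription factors and phosphatases. Over all tested probes the rule took 1.23% as higher and 1.35% as lower. Of 33 tested scaffold and adaptor probes, 4 passed the 1.5-fold rule as higher and 0 as lower: 2 of GADD45B (4.40 ± 0.47 and 1.03 ± 0.19), which binds MAP3K4, 1 of its relative GADD45A (2.71 ± 0.74) and 1 of SPAG9 (1.19 ± 0.62), the scaffold JIP4 of JNK and p38. The other 3 SPAG9 probes gave 0.42, 0.35 and -0.18. Of 25 tested probes for transcription factors that MAP kinases phosphorylate, 3 were higher and 0 lower, those of JUN (6.69 ± 0.07), JUND (1.87 ± 0.07) and MYC (1.51 ± 0.03). Of these lists' probes, only that of JUN passed limma's test over all probes (adjusted p = 0.0372), and it was saturated on 2 of 4 arrays.

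For MAP kinase phosphatases, which remove the activating phosphates, 26 probes were tested, with a list median of 0.32. By the 1.5-fold rule 9 were higher and 1 lower, against 1.23% and 1.35% of all tested probes. The highest were those of DUSP1 (4.81 ± 0.39), DUSP2 (3.86 ± 0.44 and 3.56 ± 0.14) and DUSP5 (3.76 ± 1.11), and the lower one was PPP2CA (-0.60 ± 0.00), a catalytic subunit of phosphatase 2A. By limma's test over all probes, 0 of the 26 phosphatase probes passed. These lists and the kinases share the same arrays, and the difference between them was not tested.

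**Figure D4:**
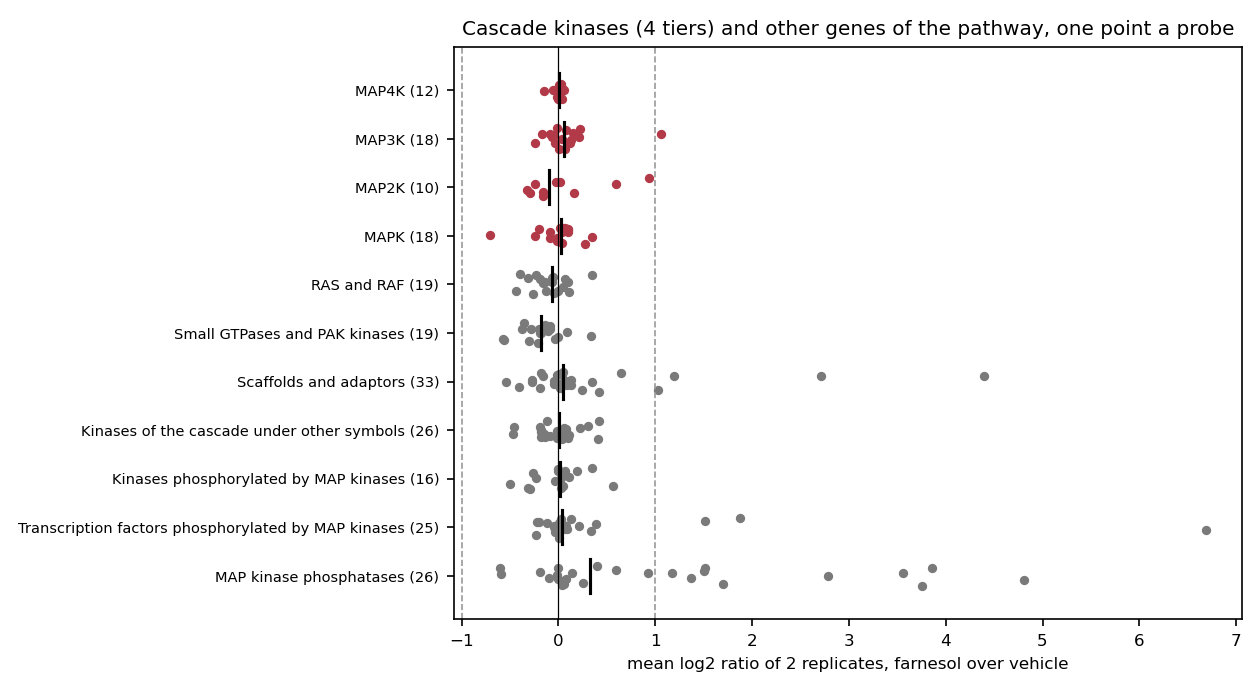
Mean log2 ratio of the 2 replicates, farnesol over vehicle (horizontal axis), for each tested probe of the 4 kinase tiers (red) and of 7 lists of other pathway genes (grey), with the number of probes in brackets, the median as a black bar and 2-fold as dashed lines. The kinase tiers lie between -0.71 and 1.06, while single phosphatase, scaffold and transcription factor probes reach 4.81, 4.40 and 6.69, the last being JUN, whose probe was saturated on 2 of 4 arrays.

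The way the intensities were processed moved sizes more than signs for the outlying kinases. Loess with an offset of 50 or 0, median centring and the scanner software's processed signals were compared. The mean log2 ratio ran from 0.99 to 1.37 for MAP3K14. For the MAP2K3 probes it ran from 0.71 to 1.03 and from 0.58 to 0.89. For MAPK14 probe A_23_P426292 it ran from -0.85 to -0.71. Across tiers, the sign of the mean was the same under all 4 for 10 of 10 MAP2K probes, 13 of 18 MAP3K, 11 of 18 MAPK and 4 of 12 MAP4K probes. The largest ratio to lose its sign was the 0.22 of MAP3K3 probe A_23_P207131, at -0.01 with median centring. MAP3K9, MAPK3, MAPK4, MAPK7 and MAPK8 probe A_23_P356152 were likewise below 0 with median centring, and MAPK8 probe A_24_P286898 was above 0 there.

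**Figure D5:**
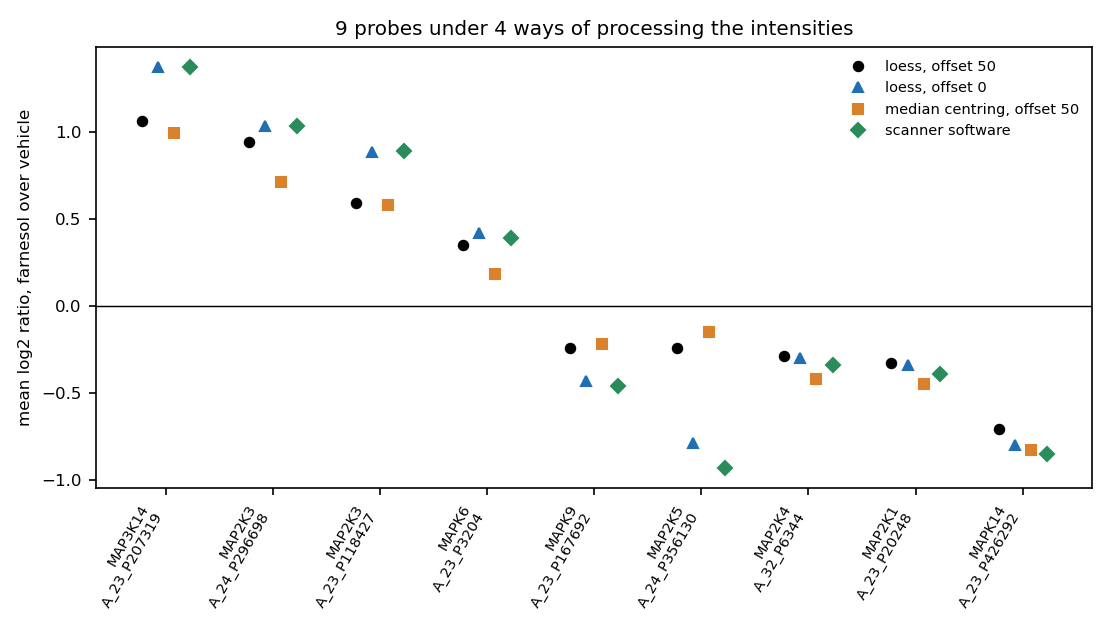
Mean log2 ratio of farnesol over vehicle (vertical axis) of 9 kinase probes under 4 ways of processing the intensities. All 9 keep their sign, and MAP2K5 moves most, from -0.15 with median centring to -0.93 with the scanner software's signals.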

How the data were processed

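Total RNA was amplified, labelled with Cy3 or Cy5 and hybridised on 2-colour arrays of 60-base oligonucleotides, per the labels' protocols. Agilent Feature Extraction 8.1.1.1, per the file headers, read the scans and gave the deposited intensity of each spot (mean and local background median). Its processed intensity was detrended, background-subtracted and dye-normalized, per the file headers. The log10 ratios of red over green that were deposited come from those signals and served only to place the authors' table. The other deposited columns used were the scanner software's flags. The authors also deposited a table, in identical copies, with a p-value and a linear ratio for each probe listed, whose headers name no program.

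The spot means were corrected for background (normexp, offset 50), and loess within arrays gave normalized log2 ratios (R 4.3.3, limma 3.58.1), with control and outlying spots at weight 0 and then left out. All 4 arrays were usable for each of the 61 kinase probes. Arrays with farnesol in Cy3 had their sign turned, and the 2 arrays of a replicate were averaged, so n = 2. Intensities per condition were taken after Aquantile scaling between arrays. Limma fitted all 37349 tested probes, with 1 residual degree of freedom each, to which moderation added 1.85. The fit was tested on simulated data. The number of arrays, 4, limits the precision.

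The kinases and gene lists were chosen with earlier results of these data known. Members given values were those 1.5-fold different in both replicates, the extremes of each tier, the ERK, JNK, p38 and MAP2K genes, and genes whose probes differed in sign or by 1 on the log2 scale. The remaining members have short values, and 1 member is counted but not reported here. For each other list, up to 3 genes past 1.5-fold were named in each direction. Gene names are those of the array design. Mouse reference tables were not used here, and no probe or gene sequence is printed. Alternatives covered the offset, the normalization, the filter on dim probes, the choice among a gene's probes, each replicate and the model.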

Additional observations from a re-analysis of the deposited data

How the results depend on the processing

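Of the 58 kinase probes, 0 passed limma's threshold with an offset of 0, median centring, processed signals, a stricter or no filter on dim probes, the brightest or mean probe of a gene, or an intensity trend. When the 4 arrays entered singly with the pair as a random block (correlation 0.534), 6 passed: both MAP2K3 probes and MAP3K14 higher, and MAPK14, MAPK9 and MAP2K5 lower, among 3945 of 37296 probes. With a dye term as well, 2 passed, MAP3K14 and MAPK14, among 2818, with the correlation taken from the fit without that term. Both fits count dye-swapped arrays of the same RNAs as partly independent. The count of kinase probes at least 2-fold different was 0 under each change of offset, normalization, filter or probe choice. It ran from 0 to 2 when 1 replicate was left out, being 2 without replicate 2. The median log2 ratio of 0.02 was 0.00 with median centring, 0.04 with processed signals, 0.01 without a filter, 0.03 with each gene's brightest probe and 0.04 with its probe mean, and from 0.01 to 0.02 when 1 replicate was left out. Over all probes the count past limma's threshold was 4, against 138 with an offset of 0, 34 with median centring, 87 with processed signals, 40 with an intensity trend, 6 with the strict filter, 3 with no filter or the brightest probe and 2 with the mean. The 2-fold count over all probes was 314, against 530 with an offset of 0, 605 with processed signals, and 724 and 746 with 1 replicate left out. With 2 replicates and ratios shrunk by the offset, the size of a change in dim kinases such as MAP2K5 is poorly fixed. Single replicates have no residual degree of freedom, so their counts have no test.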
